A study of Mus musculus with 4 samples.

Results

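Classical monocytes were described in the 2 libraries of single cells sorted as sinusoidal endothelium from mice. The cells were chosen by their measured counts of unique molecular identifiers (UMIs, tags that mark single captured transcripts). A cell was taken if it had at least 200 genes, under 10% of UMIs from mitochondrial genes, Lyz2 at 2% or more of its UMIs, fewer than 3 UMIs of Ear2, Fcgr4 and Adgre4 together, and Ngp and Camp together under 1% of its UMIs. Lyz2 encodes the lysozyme of monocytes, macrophages and granulocytes. Ear2, Fcgr4 and Adgre4 are genes of nonclassical monocytes, and Ngp and Camp encode granule proteins of maturing neutrophils. Of the 904 cells kept in this gate 189 met the rule, out of 3567 kept cells in the 4 libraries of the series. They were 120 of 351 cells in the control library and 69 of 553 cells in the library labelled knockout. Only 1 of 806 and 4 of 1857 cells of the Sca-1-positive type H gate met it, and these were not used.

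The sort for both libraries required CD31, VE-cadherin and endomucin on the cell and the absence of lineage markers and Sca-1. The labels give the control genotype as ID1 +/+ ID3+/-, although the sample title calls it WT, and the other genotype as ID1 -/- ID3-/-. All mice of both groups are given as carrying a CreER under Cdh5, the VE-cadherin gene, which is active in endothelium, and tamoxifen on 5 consecutive days is stated to delete the ID1 locus. How the ID3 alleles were made, and the age, sex and number of mice behind each library, were not stated in the labels. Each group was 1 library, so no difference below has a replicate check or a test. Intervals in parentheses are 95% and cover counting error only.

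Classical monocytes are made in bone marrow, leave it for the blood by way of the receptor Ccr2 and its ligands Ccl2 and Ccl7, and enter inflamed tissue, where they can become macrophages or dendritic cells. Type I interferons bind Ifnar1 and Ifnar2. The receptor acts through the kinases Jak1 and Tyk2 on a complex that holds Stat2 and Irf9 and binds a short repeat in the promoters of response genes. Ifit1 and Ifit3 encode proteins that act against viral RNA, and Isg15 encodes a ubiquitin-like protein that is attached to other proteins.

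Ifit3 lies on chromosome 19 from 34583531 to 34588731 on the plus strand of GRCm38, and Ifit1 lies further along the same strand, from 34640871 to 34650009. Isg15 lies on chromosome 4 from 156199424 to 156200818 on the minus strand. The 160 bases before each RefSeq start are shown because the results turn on these 3 genes, and the interferon repeat is in capitals (RefSeq, GRCm38.p6, 5′ to 3′ on the gene's strand, at chr19:34583369-34583528, chr19:34640729-34640888 and chr4:156200819-156200978).
Ifit3: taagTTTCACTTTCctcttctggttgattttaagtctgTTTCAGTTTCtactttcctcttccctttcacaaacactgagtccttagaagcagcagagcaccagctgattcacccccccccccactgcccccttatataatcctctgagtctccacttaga
Ifit1: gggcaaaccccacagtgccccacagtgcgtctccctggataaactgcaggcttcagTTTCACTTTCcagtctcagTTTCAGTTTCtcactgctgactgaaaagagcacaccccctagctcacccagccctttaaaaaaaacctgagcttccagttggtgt
Isg15: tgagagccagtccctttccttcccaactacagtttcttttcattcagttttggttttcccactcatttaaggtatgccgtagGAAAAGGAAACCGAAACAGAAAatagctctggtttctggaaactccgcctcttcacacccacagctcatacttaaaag
The repeat searched was GAAA, any 2 bases and GAAA on either strand, where the other strand reads TTTC, any 2 bases and TTTC. Ifit3 had 2 matches whose first bases lay 156 and 122 bases before the start, and Ifit1 had 2, at 104 and 85 bases. Isg15 had 3 overlapping matches, at 78, 72 and 66 bases, which form 1 run of capitals. Over the 250 bases before each start, 978 of 32851 promoters in the table held a match (2.98%). Counted by gene with any start site, the share was 3.46% of 27025 genes and 41.5% of the 41 genes of the type I interferon response list that were in the table (17 genes). A match is a description of these letters, not evidence of binding.

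The cells carried the genes their label calls for. Ccr2 stood at 1366 UMIs per 1000000 UMIs (CPM) in the control monocytes and 1127 CPM in those of the library labelled knockout, with a UMI in 116 of 120 and 68 of 69 cells. Fn1, which encodes fibronectin, stood at 1070 and 1132 CPM, in 112 and 68 cells. Chil3, a chitinase-like secreted protein of mouse monocytes and neutrophils, stood at 5703 and 11774 CPM, in 106 and 64 cells. Lyz2, on which the cells were chosen, made up a median of 4.71% of a control cell's UMIs (2.22 to 7.28%) and 4.38% of a labelled-knockout cell's (2.03 to 7.77%). Per 10000 UMIs of a cell, Ccr2 ran from 0 over a median of 13.8 to 38.6 in the control and from 0 over 12.7 to 34.3 in the labelled knockout. Fn1 ran from 0 over 9.96 to 31.0 and from 0 over 11.1 to 36.4, and Chil3 from 0 over 48.3 to 204 and from 0 over 94.2 to 358. Ccr2 and Fn1 thus covered much the same range of cells in both libraries, while Chil3 reached higher in the labelled knockout.

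Against all other cells of the same library, the monocytes had many classical monocyte genes at higher levels. These are descriptions, since the cells were chosen from the same counts. Of the 24 classical monocyte genes on the list other than Lyz2, 21 were at least 1.5-fold higher in both libraries, beside 17.5% of the 8287 genes measured. The exceptions were Ly6c2, Irf8 and Plac8. Plac8 was lower in the monocytes, at 0.786-fold (0.750 to 0.822) and 0.494-fold (0.470 to 0.520) the level of the other cells in the control and the labelled knockout. Among the 12 genes with the largest ratios were Ms4a8a, Wfdc17, Vcan, Ccl2, Cxcl2, Fn1, Fcgr1, S100a4, Tgfbi, Atf3 and Ms4a4c. Vcan, which encodes the matrix proteoglycan versican, was 41.4-fold (18.1 to 116) and 59.4-fold (31.2 to 123) higher. Tgfbi, a matrix protein induced by TGF-beta, was 16.2-fold (13.1 to 20.2) and 13.9-fold (11.9 to 16.1) higher.

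**Figure D1:**
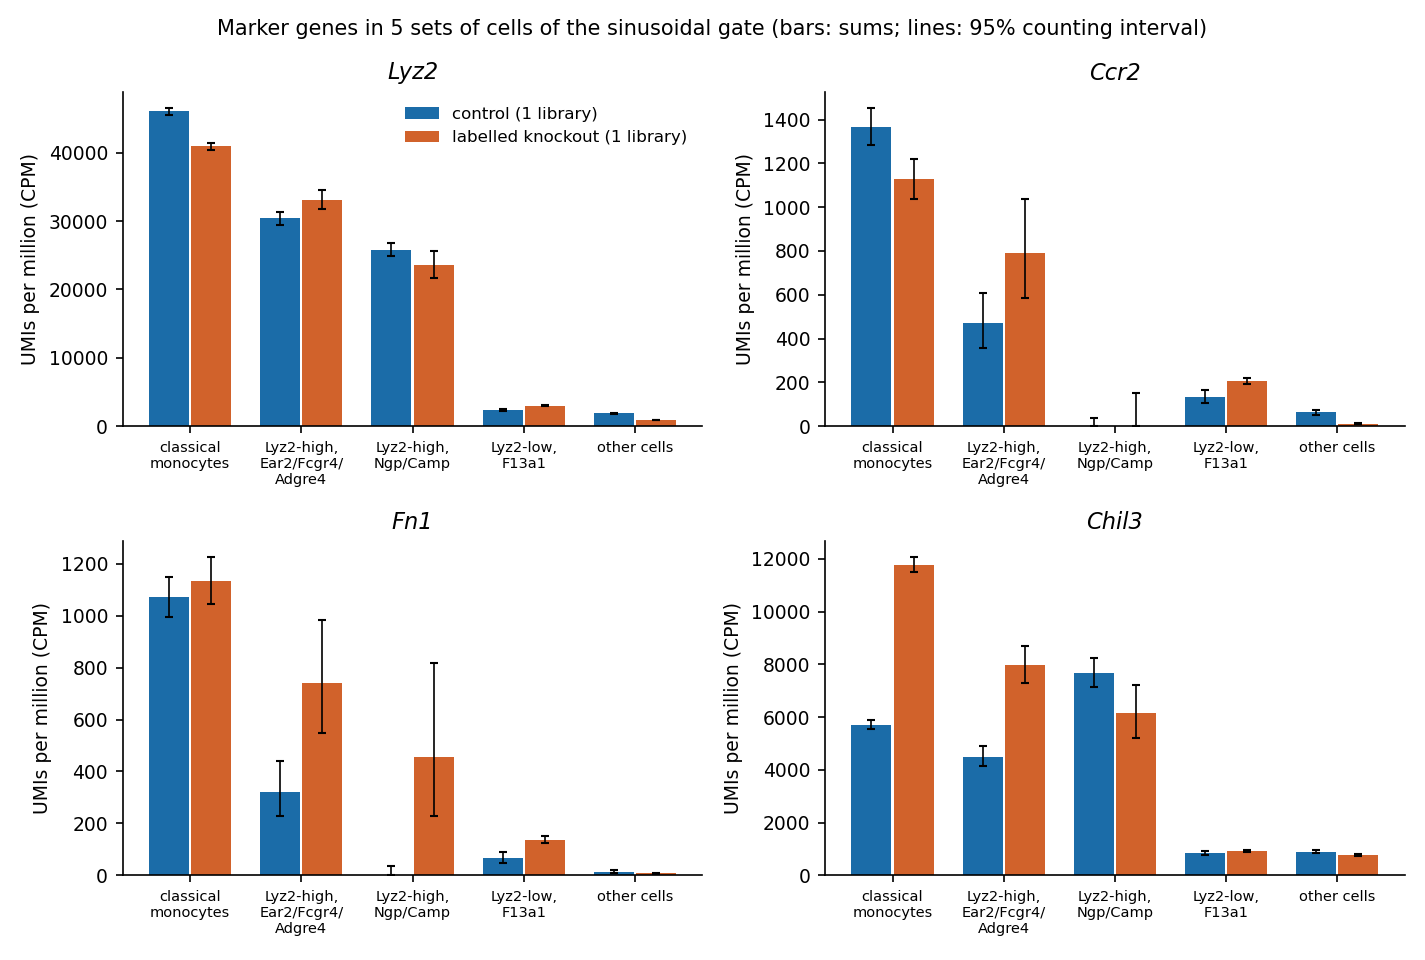
Level of Lyz2, Ccr2, Fn1 and Chil3 in CPM (y axes, from 0) in the classical monocytes and 4 other sets of cells of the gate (x axis), with the control library in blue, the labelled knockout in orange and lines for the 95% counting interval. Ccr2 and Fn1 were highest in the classical monocytes, and the cells with Ngp or Camp had 0 Ccr2 UMIs in both libraries.

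The nearest sets of cells differed from the monocytes in more than the genes of the rule. Cells as rich in Lyz2 that carried 3 or more Ear2, Fcgr4 and Adgre4 UMIs numbered 31 in the control, with Ccr2 at 470 CPM and Fn1 at 322 CPM. Csf1r, the receptor for the growth factor of monocytes, was higher in them, at 520 CPM (399 to 665), while the classical monocytes of that library had 245 CPM (211 to 284). Lyz2-rich cells with Ngp and Camp numbered 12 and 2, and held 0 UMIs of Ccr2. Cells with less Lyz2 and at least 3 UMIs of F13a1, the coagulation factor XIII gene that monocytes and their precursors express, numbered 28 in the control and 188 in the labelled knockout, with Ccr2 at 134 and 205 CPM and Fn1 at 66.0 and 137 CPM. Ly6c2 did not separate these cells from the monocytes, at 2708 and 3416 CPM against 2910 and 3306 CPM. At the border of the rule, the lowest Lyz2 share inside was 2.22% in the control and 2.03% in the labelled knockout, and the highest share outside among cells that failed on Lyz2 alone was 1.87% and 1.98%. Cells that failed only because Lyz2 lay between 1 and 2% numbered 4 and 17.

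Endothelial and T cell genes were at or near 0, while genes of granulocytes, red cells and dendritic cells were present. Of 15 endothelial genes 11 were at 0 UMIs in the monocytes of each library, with Kdr, Stab2, Emcn and Plvap among them, although the gate was drawn on endothelial proteins. The 15 genes summed to 45.2 CPM (control) and 16.6 CPM (labelled knockout), against 102 and 88.8 CPM in the other cells. They were thus low in the other cells of the gate too. Cd3e, of T cells, was at 0 in both. The 15 neutrophil genes summed to 3284 CPM (control) and 2419 CPM (labelled knockout), against 46344 and 21294 CPM in the other cells. The 9 granulocyte precursor genes summed to 869 and 1708 CPM, against 24816 and 30059 CPM. The 12 dendritic cell genes, MHC class II among them, summed to 1128 and 897 CPM, against 1315 and 113 CPM. Fn1 had 0 UMIs in 7 control and 25 labelled-knockout cells with the basophil proteases Prss34 and Mcpt8 at 0.5% or more of UMIs, which should lack it, at a median of 4531 and 9910 UMIs a cell. Lyz2 was seen there at 763 and 125 CPM, a level read here as background, against 46087 and 40967 CPM in the monocytes.

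The share of classical monocytes in the gate was 34.2% (29.2 to 39.4) in the control and 12.5% (9.84 to 15.5) in the labelled knockout. The labels give 20000 sorted cells, and the files hold 362 and 565 barcodes for these libraries. A share depends on all other cells of the gate, and fewer monocytes and more of other cells cannot be told apart. The monocytes held 729930 and 543239 UMIs, with a median of 5789 (2235 to 12690) and 6661 (2733 to 18471) UMIs and 1973.5 and 2145 genes per cell. The other cells had a median of 8447 and 16079 UMIs. No barcode was shared between these 2 libraries, and Scrublet marked 0 of the 189 monocytes as doublets.

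Id3, one of the genes given as -/- in the label, went against the labels. It gave 85 UMIs in 45 of 120 control cells and 182 UMIs in 60 of 69 labelled-knockout cells, or 116 and 335 CPM, which is a 2.88-fold higher level (2.21 to 3.77) in the labelled knockout. With every cell thinned to 2000 UMIs the shares of cells with Id3 were 19.2% (12.6 to 27.4) and 47.8% (35.7 to 60.2). Among Xist cells without Y-linked UMIs Id3 was at 27.9-fold (4.72 to 1131), with 1 UMI in 19 control cells. Id1 gave 14 and 26 UMIs, or 19.2 and 47.9 CPM, but 10 and 2 UMIs in cells of up to 10000 UMIs, where its ratio of 0.430 (0.0458 to 2.02) had the other direction. The CreER was under a gene of endothelium, and whether ID1 was deleted in these monocytes was not tested. The assay reads transcript ends, and whether the ID1 and ID3 alleles behind the -/- label still give tags was not stated. Id1 and Id3 tags may therefore not check the genotype. An exchange of the labels of these libraries, which would turn every difference by label, was not tested either. All comparisons below therefore speak of the library labelled knockout and draw no direction from the genotype.

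Ifit3, Ifit1 and Isg15 were confined to few cells of the control. The 120 control monocytes held 219 UMIs of the 3 genes together, 64 of Ifit3, 43 of Ifit1 and 112 of Isg15. No UMI was seen in 94 cells, 12 cells had 1, 4 cells had 2 to 4, and 10 cells had 5 or more. These 10 cells held 34, 25, 25, 21, 18, 17, 17, 17, 15 and 7 UMIs. They had 196 of the 219 UMIs, or 89.5%, and the next cell had 4. The 12 highest cells, 10% of the cells, held 92.7%, and after thinning each cell to 2000 UMIs the highest 10% held 91.3%. By contrast the 12 highest cells for Ccr2 held 20.3% of its UMIs, and those for Fn1 22.4%.

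The 3 genes were found in the same cells. All 3 were present in 9 cells, 2 cells had a pair of them and 15 cells had only 1, which was Isg15 in all but 2 cells. In the richest cell there were 10 UMIs of Ifit3, 4 of Ifit1 and 20 of Isg15. The one among the 10 cells without Ifit1 had 4 UMIs of Ifit3 and 14 of Isg15. The highest cell for Ifit3 had 14 UMIs, and for Ifit1 it had 9. At 2000 UMIs per cell the variance over the mean was 3.20 for Ifit3, 2.30 for Ifit1 and 3.27 for Isg15, at ranks 33, 46 and 32 of 4086 genes whose median was 0.991. Ccr2 had 1.56 and Fn1 1.57. A gene spread over cells by counting alone has a value near 1. The 10 cells are a range of counts and not a cell type, and 2 cells lay near the border, with 4 and 7 UMIs.

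**Figure D2:**
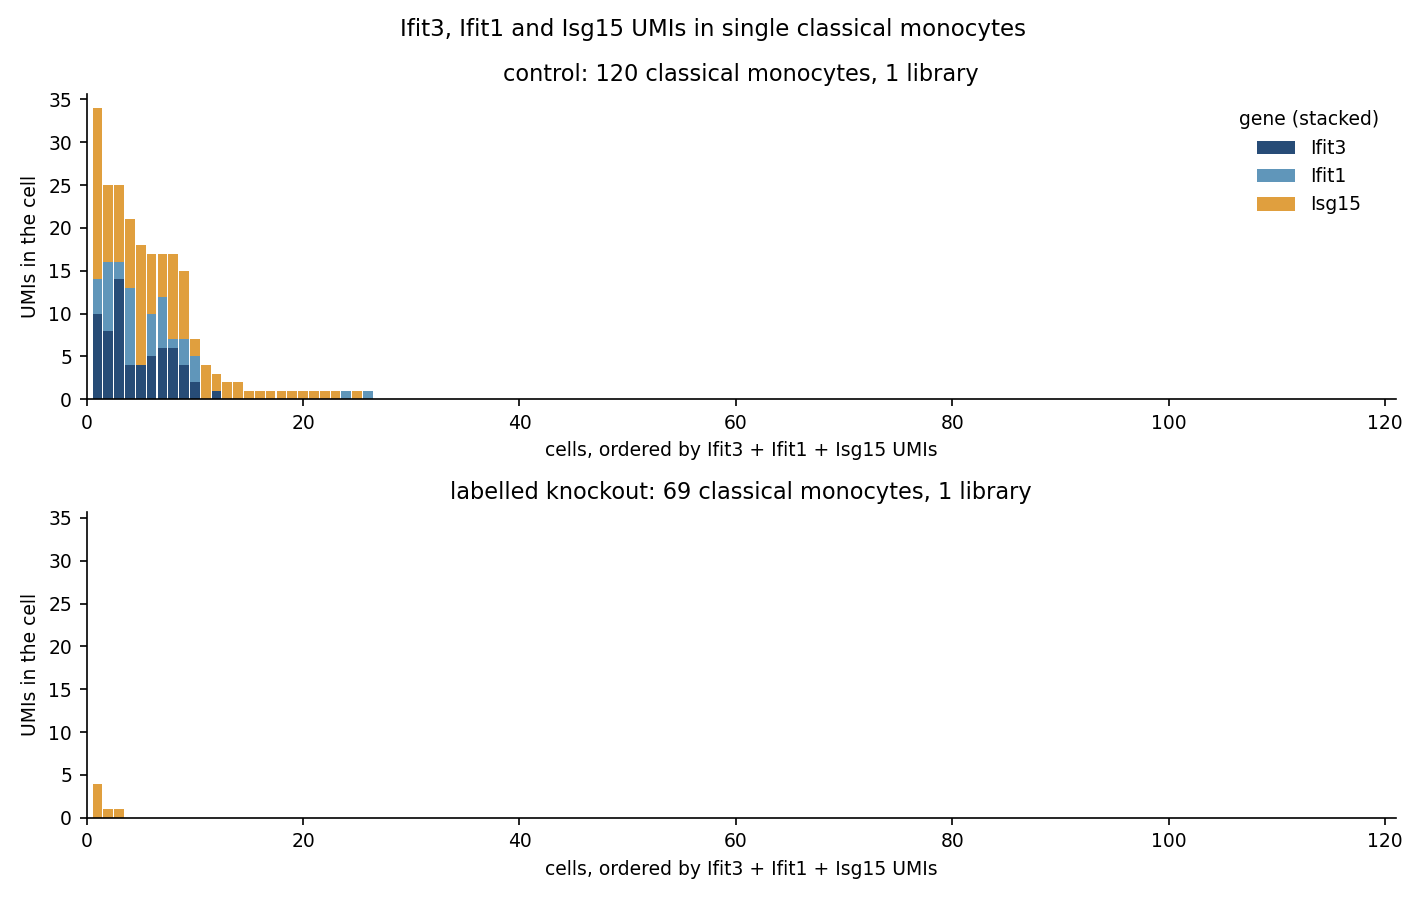
UMIs of Ifit3, Ifit1 and Isg15 (stacked colours, y axis) in each classical monocyte, ordered from the highest (x axis), in the control (top, 120 cells) and the labelled knockout (bottom, 69 cells). The 10 highest control cells held 196 of 219 UMIs, and the labelled knockout had 3 cells with 4, 1 and 1 UMIs of Isg15.

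In the labelled knockout the 3 genes gave 6 UMIs in 69 cells. All 6 were of Isg15, in 3 cells with 4, 1 and 1. Ifit3 and Ifit1 had 0 UMIs in 69 cells, for which the exact interval of the share of cells with a UMI reaches 5.21% and 3 counts would be 4.35%. Ifit3 was at 87.7 CPM in the control, at least 15.9-fold higher than the 5.52 CPM that 3 counts would give in the labelled knockout, and Ifit1 was at 58.9 CPM, at least 10.7-fold higher. Isg15 gave 112 and 6 UMIs, 0.0720-fold (0.0259 to 0.162). With a UMI of any of the 3 genes there were 26 of 120 cells (21.7%, 14.7 to 30.1) and 3 of 69 (4.35%, 0.906 to 12.2). At 2000 UMIs a cell, with no cell left out, the shares were 15.8% (9.81 to 23.6) and 1.45% (0.0367 to 7.81). None of the 3 genes was seen in the 7 and 25 basophil cells named above, which are too few to bound a low share.

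Other genes of the interferon response were higher in the same 10 cells, although the other cells held most of their UMIs. The 10 cells had 2142 UMIs of these genes, the 16 cells with 1 to 4 UMIs of the 3 genes had 1424, and the 94 cells with 0 had 6037. Per 10000 UMIs of a cell, the other genes of the response list had a median of 319 UMIs (233.9 to 487.5) in the 10 cells, 135 (92.1 to 195.5) in the 16 cells with 1 to 4 UMIs of the 3 genes and 103 (34.1 to 215.5) in the 94 cells with 0. The 10 cells did not overlap the others. They were like the rest in depth, with a median of 5709 UMIs against 5755.5 in the cells with 0, in genes, with 1944 against 1946, and in mitochondrial share, with 2.24% against 2.21%. Lyz2 was at a median of 4.52 against 4.69% of UMIs. Ccr2 was seen in 10 of the 10 cells, Fn1 in 8 and Chil3 in 10, and Siglech, a gene of plasmacytoid dendritic cells, was at 0. Other monocyte genes differed, with Ly6c2 at 5284 against 2692 CPM and Csf1r at 375 against 233 CPM in the other 110 cells. Fcgr4, which the rule limited, was at 81.5 against 8.97 CPM, levels that rest on few UMIs. Y-linked UMIs without Xist were seen in 8 of the 10 and in 40 of the 94 cells, and Xist alone in 1 and 17. Whether the sex of the mice bears on this was not tested.

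Genes of the response differed in how far they kept to these cells, which held 8.40% of all UMIs of the control monocytes. All 20 UMIs of Ifit3b, a near copy of Ifit3 whose tags may be shared with it, lay in the 10 cells. Of Ifit2, a neighbour and relative of Ifit1, 41 of 42 UMIs lay there (97.6%), and of Rsad2, the antiviral enzyme viperin, 32 of 34. Of Irf7, the transcription factor that raises interferon production, 78 of 129 UMIs lay there (60.5%). Bst2, the membrane protein tetherin, had 34.1% of its UMIs in the 10 cells, Ifi27l2a 21.0%, Ly6e 13.4% and Ifitm3 12.9%. Ifitm3, which blocks virus entry, was present in all 120 cells and Ly6e in 119. The response genes thus ran from some seen almost nowhere else to others present in every monocyte at 1.62-fold (1.47 to 1.78) the level for Ifitm3 and 1.68-fold (1.42 to 1.98) for Ly6e.

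Set against the other 110 control monocytes, 37 of the 37 measured list genes without the 3 were at least 1.5-fold higher in the 10 cells, with a median log2 ratio of 2.79. This is a description of cells picked on 3 genes of the response, and a gene was measured if both groups together held 20 UMIs. Genes such as Ifit3b (20 and 0 UMIs) and Rsad2 (32 and 2 UMIs) thus counted as measured only through the 10 cells. Trim25 and Irf9, each with 4 and 25 UMIs, had intervals that included no difference. Of all 4084 genes measured 17.3% were as much higher, and their median log2 ratio was -0.06. Among genes outside the list, Cxcl10, the interferon-induced chemokine, gave 35 UMIs in the 10 cells and 1 in the other 110, and 18 of them were in 1 cell. Ifi47, a GTPase of the interferon-gamma response, gave 48 and 19 UMIs. Mnda, a nuclear sensor of the Ifi200 family, gave 59 and 40, and Ly6a, the Sca-1 gene, 17 and 8. Lower in the 10 cells were the MHC class II genes H2-Ab1 and H2-Aa, with 0 of 131 and 0 of 105 UMIs, and Cd74 with 8 of 528, all of which were uneven genes themselves.

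**Figure D3:**
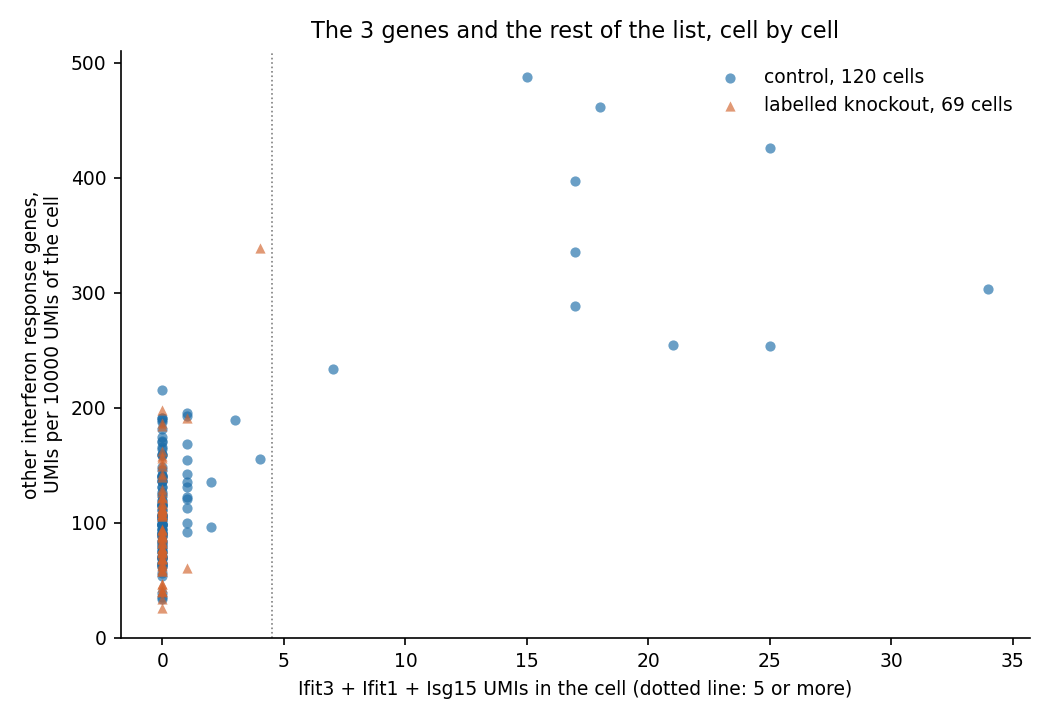
Each point is a classical monocyte, with its Ifit3, Ifit1 and Isg15 UMIs on the x axis and the UMIs of the other interferon response genes per 10000 UMIs of the cell on the y axis, for the control (blue circles) and the labelled knockout (orange triangles). The 10 control cells right of the dotted line lie between 233.9 and 487.5, and 1 labelled-knockout cell with 4 Isg15 UMIs lies at 339.

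The labelled knockout held 1 cell of this kind. It had 4 of the 6 Isg15 UMIs, and the other response genes stood at 339 UMIs per 10000, above the lowest of the 10 control cells at 234. The next cell of that library was at 198. Of the 69 cells' UMIs it held 8 of 27 of Irf7, 4 of 7 of Oasl2 and 2 of 4 of Mx1, but 0 of Ifit1, Ifit2 and Ifit3. By the other response genes, 10 of 120 control cells (8.33%, 4.07 to 14.8) and 1 of 69 labelled-knockout cells (1.45%, 0.0367 to 7.81) stood at 234 or above. The count was made after the values were seen, and its cut was the lowest of the 10 control cells, which had to pass it. These counting intervals overlap.

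Summed over cells, the interferon response was lower in the library labelled knockout. Of 54 listed genes, 51 were in the files and 43 had the 20 UMIs needed to be measured. Of these 31 were at least 1.5-fold lower, 28 of them with an interval under 1, and 1 was higher, Irf9, at 1.53-fold with 29 and 33 UMIs and an interval that included no difference. The median log2 ratio was -0.92. As the 20 UMIs were counted over both libraries, genes such as Ifit3 (64 and 0 UMIs), Ifit2 (42 and 1) and Rsad2 (34 and 2) counted as measured only through the control. For such genes a lower level was nearly set by this rule, so the count and the median are descriptions. Over all 5598 genes measured, 13.3% were at least 1.5-fold lower and 11.2% higher, with a median log2 ratio of 0.01. Of these genes, 332 lower and 288 higher had an interval that excluded no difference. The 12 genes that led the lower direction held 9 of the response list (Ifit3, Ifit1, Phf11d, Isg15, Ifit2, Ifit3b, Rsad2, Oasl2 and Rtp4), the inflammasome gene Pydc4 and the globin genes Hbb-bs and Hba-a2. Phf11d gave 51 UMIs in 18 cells and 1 UMI in 1 cell, and belongs to a family of close copies. Rtp4 gave 87 UMIs in 31 cells and 11 in 8, at 0.170-fold (0.0818 to 0.319).

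The 10 cells were picked for high counts of genes of this list, so leaving them out had to narrow the difference. Without them 31 genes of the list were measured, 7 were lower and the median log2 ratio was -0.26. Irf7 then stood at 0.652-fold (0.393 to 1.06), against 0.281-fold (0.179 to 0.428) with them. Ifi27l2a moved from 0.864-fold (0.789 to 0.946) to an interval of 0.911 to 1.10. Oasl2 and Rtp4 were still lower, at 0.308-fold (0.114 to 0.721) and 0.376-fold (0.173 to 0.755). Isg15, with 20 and 6 UMIs left, was at 0.369-fold (0.121 to 0.953). Without the 3 cells of each library with the most UMIs of the 3 genes, 28 of 40 measured genes were lower and the median was -0.92. Since a few cells carry many of these UMIs, the counting intervals are too narrow for a difference between libraries.

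Interferon receptor genes were within 1.5-fold, and most genes of nucleic acid sensing were lower. Of 10 measured genes of receptors and transducers 2 were higher, Tyk2 and Irf9, beside 11.2% of all genes. Lower were 4, with Usp18, Stat2 and Jak1 among them, beside 13.3% of all genes. Irf9, Usp18 and Stat2 are on the response list too. Ifnar2 was at 1.05-fold (0.749 to 1.46), Ifnar1 at 0.912-fold (0.481 to 1.69) and the interferon-gamma receptor Ifngr1 at 0.863-fold (0.718 to 1.03). The counts that follow stand beside 13.3% of all genes lower. Of 9 measured genes of nucleic acid sensing 6 were lower and 0 higher, with a median log2 ratio of -1.05. The list holds sensors and genes that act after them, such as Tbk1, Irf3 and Irf7. Irf7 and Zbp1 are also on the response list. Ifih1, which senses long double-stranded RNA, gave 27 and 8 UMIs, and Zbp1, a sensor of Z-form nucleic acid, 126 and 45. Of 5 GTPase genes of the interferon-gamma response 4 were lower, with Gbp2 at 27 and 4 UMIs. Of 13 MHC class I genes 3 were lower, not far from that share, and the median was -0.36, with B2m at 0.832-fold (0.782 to 0.885). Without the 10 cells the sensing genes were 4 lower of 8, the GTPases 0 lower of 3 and class I 1 lower of 13.

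Interferon transcripts themselves were nearly unseen. Of 10 ligand genes only Ifnb1 had a UMI in the monocytes, 1 UMI in 1 control cell. That cell was 1 of the 10, with 21 UMIs of the 3 genes. Ifng had 5 UMIs in other cells of the control gate and 0 in the labelled knockout. A single UMI carries no weight, and transcripts of this kind can fall below detection.

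**Figure D4:**
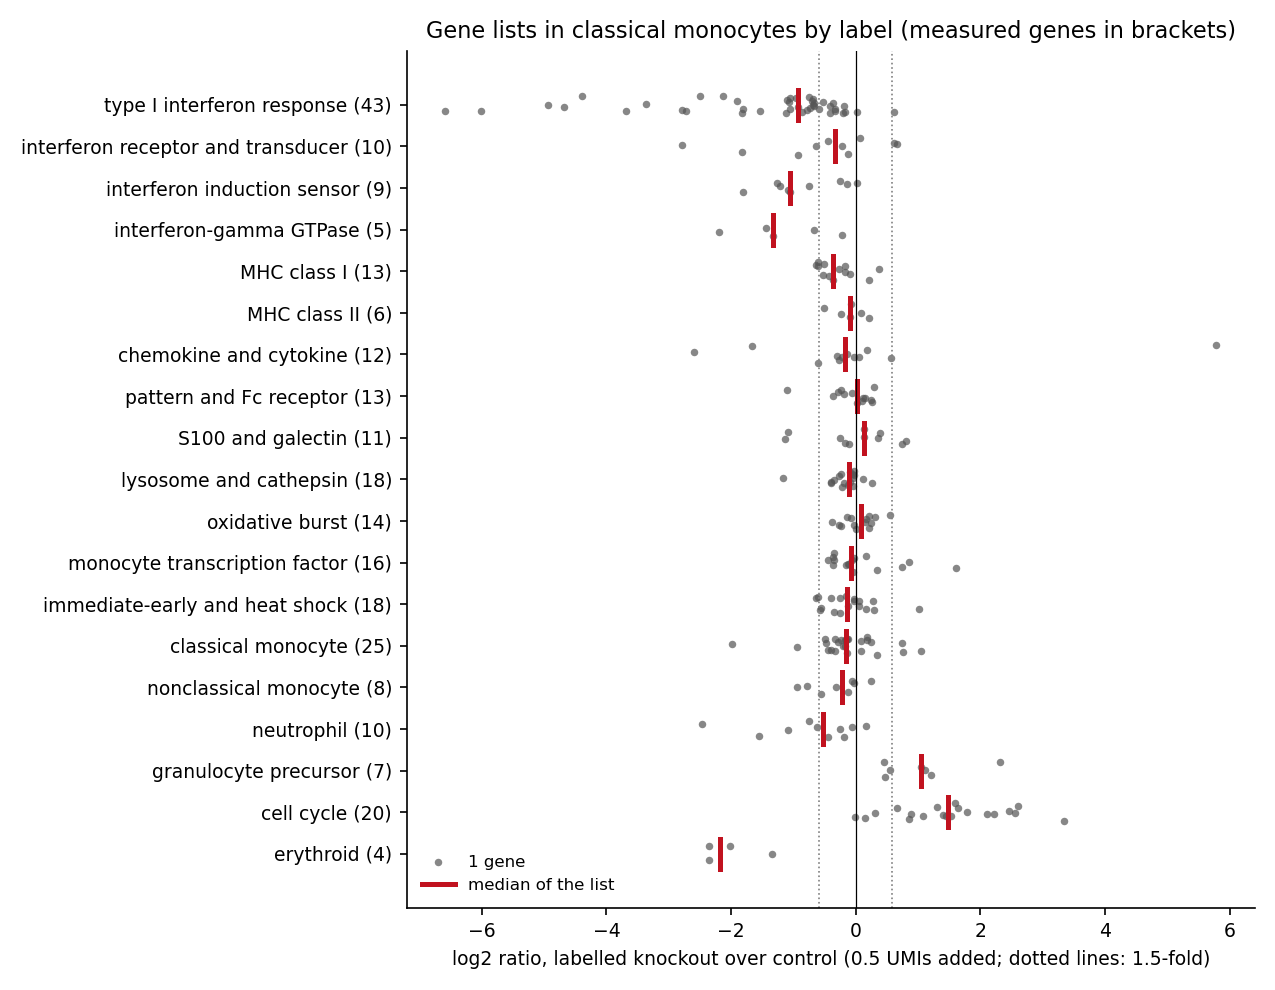
Log2 ratio of the labelled knockout over the control (x axis, with 0.5 UMIs added to each sum) for every measured gene (points) of 19 gene lists (rows, with the number of measured genes) and the list's median (red bar). The type I interferon response has its median at -0.92, the cell cycle list at 1.48, and the oxidative burst list at 0.08.

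Cell cycle genes were the main group in the other direction. Of 20 measured genes 17 were at least 1.5-fold higher in the labelled knockout and 0 lower, with a median log2 ratio of 1.48, beside the 11.2% of all genes. Their summed level was 2615 CPM (2499 to 2735) in the control and 7025 CPM (6803 to 7251) in the labelled knockout. Ube2c, which helps the anaphase-promoting complex destroy cyclins, gave 51 UMIs in 10 cells and 225 in 21 cells, 5.93-fold (4.36 to 8.20). Ccnb1, cyclin B1, gave 18 UMIs in 5 cells and 83 in 17, and Top2a, the topoisomerase of mitotic chromosomes, 31 in 13 and 100 in 19. Of the 12 genes that led the higher direction, Ube2c, Cenpf, Nup37, Ccnb1, Prc1, Ckap2, Cep55, Cdc20, Cks1b, Cenpe and Ccnb2 belong to division or the nuclear pore. The remaining one was Ccl7, whose 20 UMIs were all in 1 cell. Mcm5 and Tyms, of DNA replication, were higher too, while Pcna gave 57 and 42 UMIs, at 0.990-fold.

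These genes also sat in a minority of cells, which took in all of the deepest ones. At least 50 cell cycle UMIs per 10000 were found, at a border chosen after the values were seen, in 12 of 120 control cells (10.0%, 5.28 to 16.8) and in 19 of 69 labelled-knockout cells (27.5%, 17.5 to 39.6). Only 1 and 2 cells lay between 30 and 70, so few cells were near this border. All 7 control cells and all 18 labelled-knockout cells with over 10000 UMIs were at 50 or more. So were 5 control cells and 1 labelled-knockout cell of up to 10000 UMIs, the shallowest with 4382 and 6265 UMIs. In cells of up to 10000 UMIs the summed level was 1357 CPM (1269 to 1450) and 1468 CPM (1335 to 1612), with overlapping intervals. There 7 list genes were measured, 1 higher and 4 lower, and their median log2 ratio was -0.61. Depth and cell cycle moved together, and their parts in the difference by label cannot be told apart.

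The cells at 50 or more differed from the others in several genes. Their median Lyz2 share was 3.11 against 4.82% in the control and 2.90 against 5.18% in the labelled knockout. Ccr2 was at 603 against 1508 CPM and at 579 against 1588 CPM. Csf1r was at 96.2 against 273 CPM and at 80.5 against 251 CPM. Higher in them were Ly6c2, at 4310 against 2650 and 4318 against 2453 CPM, and Elane, neutrophil elastase of the primary granules, at 621 against 239 and 1099 against 214 CPM. None of the cells with 5 or more UMIs of the 3 interferon genes was among them. By Lyz2, the summed cell cycle level was 13085 CPM at 2 to 3% and 1042 CPM at 5% or more in the labelled knockout, and 6834 and 860 CPM in the control. Cell cycle genes thus moved with Lyz2, by which the cells were chosen.

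**Figure D5:**
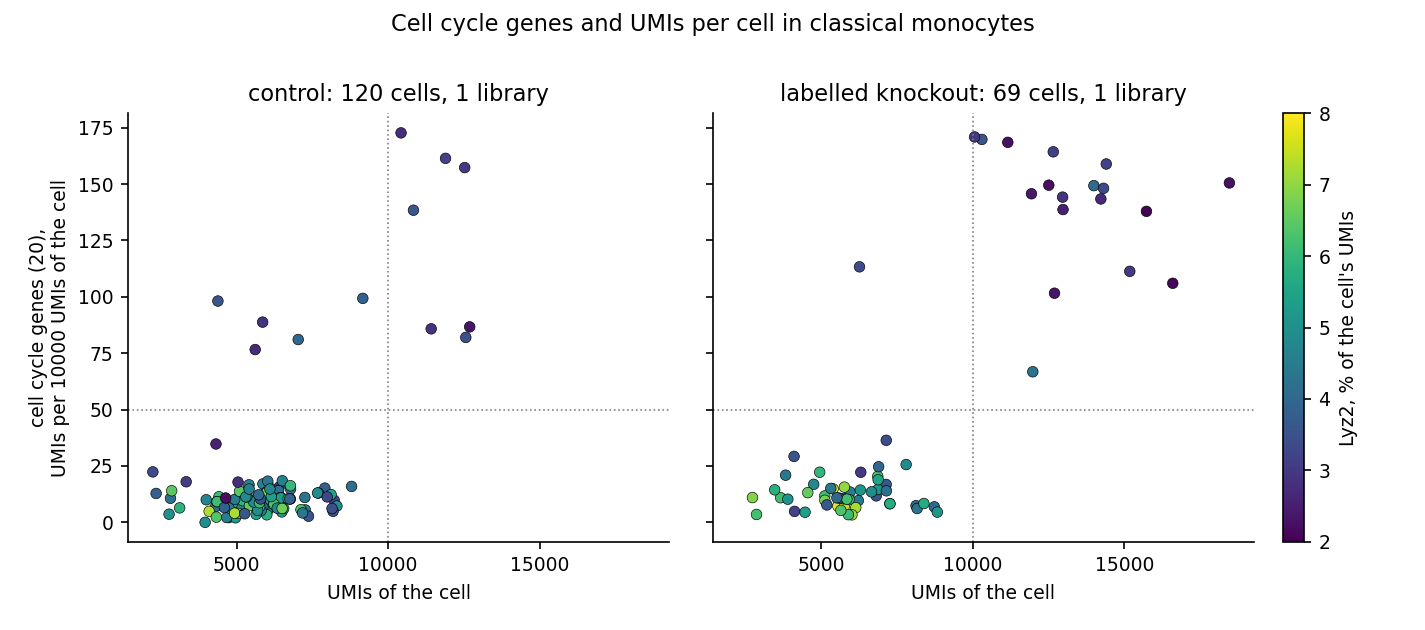
Cell cycle UMIs per 10000 UMIs of the cell (y axis) against the UMIs of the cell (x axis) in each classical monocyte of the control (left, 120 cells) and the labelled knockout (right, 69 cells), coloured by the Lyz2 share. All 7 and 18 cells with over 10000 UMIs stand above 50, and the cells below 50 reach at most 36.4.

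Of 7 measured genes of granulocyte precursors 4 were higher in the labelled knockout and 0 lower, beside 11.2% of all genes higher, with a median log2 ratio of 1.05. Elane was at 299 and 619 CPM, and 129 of its 336 labelled-knockout UMIs were in 1 cell. Without the highest cell of each library it was at 1.42-fold. Prtn3, proteinase 3, was at 199 and 429 CPM, 2.16-fold (1.75 to 2.67), and Ctsg, cathepsin G, at 123 and 287 CPM, 2.33-fold (1.78 to 3.05). In cells of up to 10000 UMIs 0 of 6 genes of this list were higher, with Elane at 0.869-fold (0.641 to 1.17). In the basophil cells Elane was at 382 and 290 CPM, which is near or above the 239 and 214 CPM of the monocytes under 50 cell cycle UMIs per 10000.

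Several genes of the monocytes themselves differed by label. Chil3 was 2.06-fold higher (1.98 to 2.15) in the labelled knockout, and 1.79-fold (1.70 to 1.89) in cells of up to 10000 UMIs. Lgals1, galectin-1, was at 949 and 1581 CPM, and S100a10 at 688 and 1208 CPM, but in cells of up to 10000 UMIs 0 of 11 S100 and galectin genes were past 1.5-fold higher and Lgals1 was at 1.36-fold (1.18 to 1.55). Irf8, a transcription factor that directs monocyte and dendritic cell fate, was 1.67-fold higher (1.38 to 2.03), and 1.17-fold (0.897 to 1.53) in cells of up to 10000 UMIs. Fcgr1, the high-affinity IgG receptor, was at 123 and 57.1 CPM, 0.463-fold (0.297 to 0.703), and without the 10 cells it was at 0.707-fold (0.439 to 1.12). Cx3cr1, the fractalkine receptor, was at 0.515-fold (0.350 to 0.744), but 0 of 25 genes of the identity list were lower in cells of up to 10000 UMIs or in Y-linked cells. Ccr2 was at 0.825-fold (0.745 to 0.913) and Fn1, with 781 and 615 UMIs, at 1.06-fold, neither past 1.5-fold. Within 1.5-fold were 21 of 25 genes of the identity list, beside 4224 of all 5598 genes measured, a share not far off.

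Most effector genes were within 1.5-fold by label, as were 4224 of all 5598 genes measured. Of 14 oxidative burst genes, which make and handle reactive oxygen, 0 were past 1.5-fold, and of 18 lysosome and cathepsin genes 1 was lower and 0 higher. In cells of up to 10000 UMIs 2 oxidative burst genes were higher. The interval of Cyba, a subunit of the NADPH oxidase, was 0.909 to 1.06. Of 13 pattern and Fc receptor genes only Fcgr1 was past 1.5-fold. Of 12 chemokine and cytokine genes Ccl7 was higher and Cxcl10, Ccl4 and Osm lower, beside 11.2 and 13.3% of all genes. In cells of up to 10000 UMIs 4 were higher and 2 lower, with Ccl2 at 2.03-fold (1.57 to 2.63) and Cxcl2 at 1.58-fold (1.30 to 1.91), and the median log2 ratio was 0.25 in place of -0.18. Ccl4, which draws lymphocytes and monocytes, gave 121 UMIs in 30 control cells, 29 of them in 1 cell, and 28 UMIs in 18 cells. Among 18 immediate-early and heat shock genes, which dissociation can raise, Ier3 was higher and Junb and Jund were lower, shares near those of all genes (11.2 and 13.3%). In cells of up to 10000 UMIs 2 were higher and 0 lower, with Junb at 0.917-fold (0.803 to 1.05), and in Y-linked cells 4 were higher and 0 lower. Among 16 monocyte transcription factor genes 3 were higher (Tfec, Runx1 and Irf8) and 0 lower, not far from the 11.2% of all genes that were higher, with Spi1, the PU.1 gene, at 0.968-fold (0.834 to 1.12).

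Genes of other cells moved with the label as well. All 4 measured globin genes were lower in the labelled knockout, with Hbb-bs at 736 and 144 CPM in the monocytes. Outside the monocytes and the 15 and 11 cells with haemoglobin at 5% or more of UMIs, Hbb-bs stood at 707 and 153 CPM, close to the level in the monocytes. Its variance over the mean in the monocytes was 0.975 and 0.923, and it was found in 118 of 120 and 43 of 69 cells. Of 10 neutrophil genes 5 were lower, beside 13.3% of all genes, with S100a9 at 408 and 191 CPM. Ngp, which the rule limited, gave 124 and 31 UMIs. The basophil genes Mcpt8 and Prss34 gave 20 and 27 and 35 and 42 UMIs, at 1.81-fold and 1.61-fold, and basophil cells numbered 7 and 25 in the gate. Free RNA of the gate was not measured in empty droplets, and its part in these differences was not tested.

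MHC class II genes were uneven in both libraries. Cd74, the invariant chain, had the highest variance over the mean at 2000 UMIs, 27.8 in the control and 23.1 in the labelled knockout. H2-Aa and H2-Ab1 stood at 12.5 and 11.9 in the control, below Actb and Apoe, and at 8.08 and 11.3 in the labelled knockout, below Actb, Chil3 and Apoe. At least 5 UMIs of H2-Aa, H2-Ab1 and H2-Eb1 together were seen in 6 of 120 and 2 of 69 cells, a count chosen after the values were seen. The 6 control cells held 433 of 528 Cd74 UMIs, and the 2 labelled-knockout cells 241 of 277. Chil3 was at 2154 CPM in the 6 cells against 5854 in the others, and at 70.5 against 12087 CPM in the labelled knockout. Ccr2 was present in them at 2087 and 1974 CPM. Dendritic cell genes were mixed. Flt3 was at 101 against 24.3 CPM in the control and at 70.5 against 7.56 CPM in the labelled knockout. Clec10a was at 33.7 against 27.1 CPM and at 423 against 28.4 CPM. The B cell gene Cd79a was at 67.3 against 1.43 CPM in the control and at 0 against 1.89 CPM in the labelled knockout. These 6 and 2 cells had medians of 5053 and 7091 UMIs. At that depth their Flt3 and Cd79a levels, and the Clec10a level in the control, rest on very few UMIs. Cd209a was at 0 in these cells, and Zbtb46, Xcr1 and Itgax were at 0 in all monocytes of both libraries.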

How the data were processed

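The deposited matrices hold raw counts of UMIs per gene and barcode for 27998 genes, per the file headers and the values. Per the submitters' processing notes, mm10 was the genome build and the tools were Cell Ranger and Seurat (no version given). Droplet capture was on the 10x Chromium, per the labels. Called barcodes only are in the files, so free RNA was read from cells that should lack a gene.

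UMIs were summed over the monocytes of a library and scaled to their total (CPM). A gene was measured with at least 20 UMIs in both libraries together, and counted as higher or lower at 1.5-fold, labelled knockout over control. Log2 ratios had 0.5 UMIs added. Sums have exact Poisson, shares exact Clopper-Pearson and ratios exact conditional intervals at 95%. Bounds against 0 use 3 counts per library. Thinning drew 2000 UMIs per cell. No p-value was made from cells.

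The cells, gene lists and rules for naming genes were chosen with earlier results of these data known. Named were the marker, Id and 3 interferon genes, up to 12 genes per direction by the interval bound nearest 1, up to 4 genes per list by UMIs, the 12 leading genes against the gate and the measured response genes. Any other gene named was chosen after its values were seen. Cells that Scrublet marked (5 and 6) were kept. Symbols on 2 rows were left out (56), and a few genes of these lists are not reported here. Python 3.11.15, numpy 2.4.6, pandas 2.3.3, scipy 1.17.1 and scanpy 1.11.5 were used, and the scripts were tested on simulated data. Gene positions are from GENCODE on GRCm38.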

Additional observations from a re-analysis of the deposited data

Results flagged for a closer look

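Each library held cells with Y-linked UMIs and cells with Xist, so mice of both sexes were pooled. There were 56 Y-linked cells without Xist in the control and 24 in the labelled knockout, 19 and 14 Xist cells without Y-linked UMIs, 44 and 31 cells with neither, and 1 and 0 with both. Named genes other than sex-linked ones were compared where each set had at least 20 UMIs over both libraries. For 9 of them the ratio of labelled knockout to control had opposite directions in the 2 sets, each with a counting interval off 1. Only these 9 were picked out, and their share of the genes compared was not counted. The difference was not tested, since the sexes share 1 library per group. The 14 Xist cells of the labelled knockout had a median of 11361 UMIs and a cell cycle level of 11396 CPM, against 2266 CPM in the Xist cells of the control, and the part of this in the values below was not tested.

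In Xist cells the ratio of Cxcl2, a neutrophil-attracting chemokine, was 0.0584 (0.0153 to 0.159), against 2.63 (2.02 to 3.43) in Y-linked cells. For Ccl3 it was 0.220 (0.155 to 0.307) against 1.48 (1.22 to 1.80), and for Ccl2 0.441 (0.221 to 0.853) against 1.73 (1.13 to 2.64). Ccl6 was at 0.502 (0.407 to 0.618) against 1.37 (1.19 to 1.57). Among genes that respond within minutes to stimulation, Nr4a1 was at 0.179 (0.0435 to 0.555) against 1.85 (1.11 to 3.06), Dusp1 at 0.338 (0.249 to 0.454) against 1.27 (1.02 to 1.58) and Fos at 0.539 (0.448 to 0.648) against 1.18 (1.04 to 1.35). Lyz2, used to choose the cells, was at 0.647 (0.623 to 0.672) against 1.08 (1.05 to 1.11), and Wfdc17 at 0.671 (0.518 to 0.868) against 1.22 (1.04 to 1.41).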

How the results depend on the processing

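The share of monocytes in the labelled knockout was 15.5% with Lyz2 at 1% or more. Genes counted as higher were then 985, with at least 10 UMIs per gene 1067, with at least 50 UMIs 233, with thinned cells 293, in Y-linked cells 321, in Xist cells 382 and in cells of up to 10000 UMIs 398. Genes counted as lower were 1208 with at least 10 UMIs, 287 with at least 50, 351 with thinned cells, 497 in Y-linked cells and 317 in Xist cells. These settings test fewer or more genes or cells. The Id3 ratio was 27.9 in Xist cells, where the control had 1 UMI. Response genes counted as lower were 18 with at least 50 UMIs per gene, 14 with thinned cells, 11 in Xist cells and 7 without the 10 cells. Cell cycle genes counted as higher were 11 with Lyz2 at 3% or more, 8 with thinned cells, 6 in Y-linked cells and 1 in cells of up to 10000 UMIs. No other alternative tried moved these counts by over 1.5 times, but in cells of up to 10000 UMIs the cell cycle list had 4 genes lower and a median log2 ratio of -0.61, and Id1 was at 0.430-fold, both in the other direction. Of 129 values of single response genes under 3 alternatives, 120 stayed within the counting interval. Leaving out deep cells, the 10 interferon-rich cells or each gene's highest cell, and running the list counts under every setting, were chosen after seeing the data.

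No paired analysis was possible because each group is 1 library. Depth limits what was seen: 3 counts are 4.11 CPM in the control monocytes and 5.52 CPM in those of the labelled knockout.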

Other observations

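Interferon-rich cells were not limited to the monocytes. Among the 28 control cells with less Lyz2 and with F13a1, 2 cells held 90 and 56 of 150 UMIs of Ifit3, Ifit1 and Isg15, and at a median of 22646 UMIs these cells were deeper than the monocytes. Outside the named sets 3 control cells had 5 or more UMIs, and the highest held 15 of 45. In the labelled knockout, 4 cells outside the named sets had 5 or more UMIs, and 1 of them held 85 of 163. The 188 F13a1-positive cells of that library held 13 UMIs, with at most 2 in a cell. Over all cells but the monocytes, 27 of 231 control cells (11.69%) and 51 of 484 labelled-knockout cells (10.54%) had a UMI of the 3 genes. Their summed levels were 82.45 and 23.36 CPM, at medians of 8447 and 16079 UMIs a cell. In the 31 control cells with nonclassical genes there were 6 UMIs in 6 cells, at a median of 2573 UMIs a cell.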
